A study of Rattus norvegicus with 23 samples.

Results

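Transcript levels at 36 h were compared between neural stem cells on a stiff substrate and on a soft one. Members were taken by their sample titles: the 3 stiff libraries and the 3 soft libraries at 36 h, 6 of 23 libraries in all. The other 17 libraries, from 0, 12 and 24 h, served to follow the same genes back in time and to set the spread between replicates. Each of those groups had 3 libraries except soft at 12 h, with 2. All cells came from the hippocampus of adult female rats and were of wild-type (WT) genotype. Every group, at 0 h too, is labelled with 1 treatment, a mixed differentiation medium of DMEM-F12 and N2 to which 1 uM retinoic acid and 1% FBS had been added. Soft and stiff groups thus shared everything the labels record except the substrate. How stiff each gel or surface was, and whether the numbered rounds (1 to 3) were separate cultures or animals, is not given in the sources used here. The p-values therefore cover no more than the spread among these libraries, which may be technical.

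Adult hippocampal neural stem cells divide and can become neurons, astrocytes or oligodendrocytes. They are known to sense the rigidity of what they adhere to through integrins, focal adhesions and the contractile actin cytoskeleton, and in mixed media soft surfaces are known to favour neurons and stiff ones glia. Retinoic acid, a ligand of nuclear receptors, promotes exit from the stem cell state, and serum favours astrocytes. The series title names eEF1A1, the translation factor that carries aminoacyl-tRNA to the ribosome and also binds actin. The question of the comparison is which transcripts depend on stiffness at the end of the sampled course.

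Genes are given by Ensembl rat identifiers. The deposited table does not pair them with names, and 0 of its 32883 identifiers matched the reference table used here. Neither eEF1A1, nor markers of stem cells, neurons, glia or other cell types, nor any pathway could therefore be looked up, and the labelled cell type was not checked against markers. Of the 8 genes that passed the test, 4 are printed by identifier: both that were higher on stiff, and the 2 lower ones with the smallest p. The other 4 are called the third to sixth lower genes, in order of p. Levels are CPM, the reads of a gene scaled to a common library total with TMM factors, and differences are log2 fold changes, stiff minus soft, with their standard errors (SE). In bulk libraries such as these, fewer cells of a type and less RNA per cell cannot be told apart.

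The 36 h libraries held 2573665 to 6358462 counts and 13287 to 14436 genes with at least 1 count. The ranges of the substrates overlapped: 2573665 to 6358462 on soft and 3536182 to 5203157 on stiff. Soft replicate 3, the library with the lowest total, stood apart from the others. On the first principal component of the 6 libraries (28.2% of their variance) it lay at -39.96, and the other 5 lay between 5.92 and 10.85. On this component the soft libraries all lay below the stiff ones, but the highest soft score, 6.76, was close to the lowest stiff score, 7.02. On the next components (22.8% and 19.3%) the substrates overlapped. The main counts are given with and without it.

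At 36 h, 8 of 11857 tested genes (0.0675%) differed between the substrates, 6 lower (0.0506%) and 2 higher (0.0169%) on stiff. The lean toward lower genes depended on the setting and was small in some fits that called more genes, as given below. The test was edgeR's quasi-likelihood F test on 1 fit to all 23 libraries, with a gene called where its Benjamini-Hochberg adjusted p over all tested genes was under 0.05. Fold differences ran from 1.55 to 2.02, and the median size on the log2 scale was 0.77. Each of the 8 genes had libraries of the 2 substrates that did not overlap at 36 h. Over all tested genes 5.9% lay wholly higher on stiff and 6.73% wholly lower, so libraries that do not overlap were common. Without soft replicate 3, 4 genes were called, 1 higher and 3 lower, and all 4 were among the 8.

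**Figure D1:**
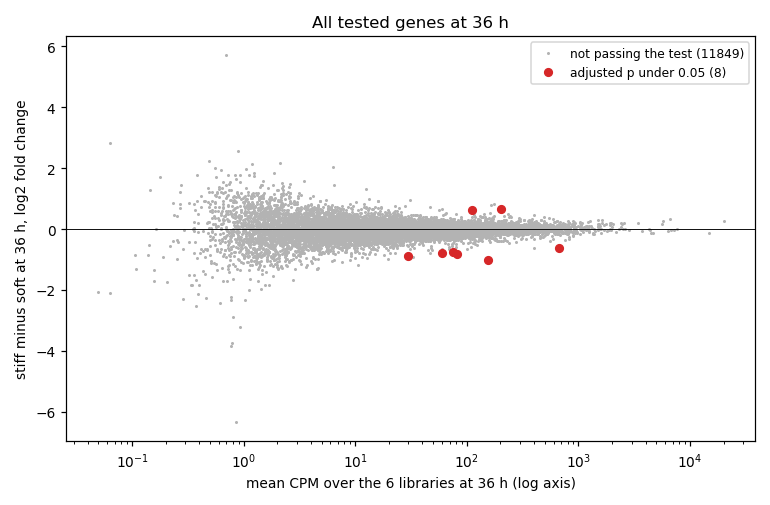
Stiff minus soft at 36 h (log2 fold change) against the mean CPM of the 6 libraries (log axis), with 1 point for each of 11857 tested genes. The 8 genes that passed the test (red) lie at means above 10 CPM, 6 below and 2 above the line at 0. The grey points fan out to the left, where counts are few.

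From 24 to 36 h the lower genes moved more on soft than on stiff, a difference that their choice at 36 h favours. Of the 6, 2 also rose on stiff. ENSRNOG00000006052, the gene with the smallest p, stood at 102, 115 and 99.7 CPM in the soft libraries and at 54.4, 63.8 and 60.6 CPM in the stiff ones at 36 h. All 3 soft values lay above every other library of the series, whereas the stiff values overlapped those of 24 h on both substrates, with replicate 1 below all 6. The difference was 1.77-fold (log2 fold change -0.83, SE 0.111, adjusted p from edgeR = 0.000218).

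Before 36 h the 2 substrates followed each other closely in ENSRNOG00000006052. At 0 h the soft libraries held 73.3, 96.8 and 87.2 CPM and the stiff ones 85.3, 98.8 and 86 CPM. At 12 h the values were 73.3 and 64.7 CPM on soft and 68.9, 64.6 and 66.2 CPM on stiff. At 24 h they were 59.6, 73.4 and 60.6 CPM on soft and 63.2, 60.8 and 65.1 CPM on stiff. The libraries overlapped at each of these times, with log2 differences of 0.07, -0.05 and -0.04 (SE 0.105, 0.125 and 0.108), none of which passed the test. The gene had fallen by 24 h on both substrates, by 0.41 (SE 0.108) on soft and by 0.51 (SE 0.106) on stiff on the log2 scale. Between 24 and 36 h it rose on soft, by 0.71 (SE 0.108), while the change on stiff was -0.08 (SE 0.111) and did not pass the test. These last steps use the 36 h libraries that chose the gene and are given as a description. The call at 36 h held with each of the 6 libraries left out in turn, with adjusted p from 0.000662 to 0.0135 by the same edgeR quasi-likelihood test.

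ENSRNOG00000017206 rose on both substrates and rose further on soft. At 36 h it stood at 209, 186 and 228 CPM on soft and at 115, 95.5 and 96.8 CPM on stiff, a 2.02-fold difference (log2 fold change -1.01, SE 0.172, adjusted p from edgeR = 0.00797). The soft values were again above all other libraries. At 0 h the gene was near its floor, with 1.57, 1.62 and 3.62 CPM on soft and 3.74, 4.84 and 4.4 CPM on stiff. At 12 h it held 6.92 and 7.23 CPM on soft and 7.06, 11.6 and 18 CPM on stiff. At 24 h it held 38.3, 49.8 and 77 CPM on soft and 41, 34.4 and 49.6 CPM on stiff. The stiff libraries thus lay wholly above the soft ones at 0 h, overlapped them at 12 and 24 h and lay wholly below them at 36 h. The differences were 1.00 at 0 h (SE 0.43), 0.71 at 12 h (SE 0.339) and -0.38 at 24 h (SE 0.185). None passed the test after adjustment, and each had an unadjusted p under 0.05 (0.0267, 0.0439 and 0.0457 by edgeR's quasi-likelihood test). From 24 to 36 h the log2 rise was 1.92 (SE 0.178) on soft and 1.29 (SE 0.182) on stiff. The call at 36 h was lost without soft replicate 1 or 3 (edgeR adjusted p = 0.0531 and 0.0511) and without stiff replicate 2 or 3 (0.0919 and 0.105), with log2 fold changes from -1.11 to -0.94 over all settings.

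**Figure D2:**
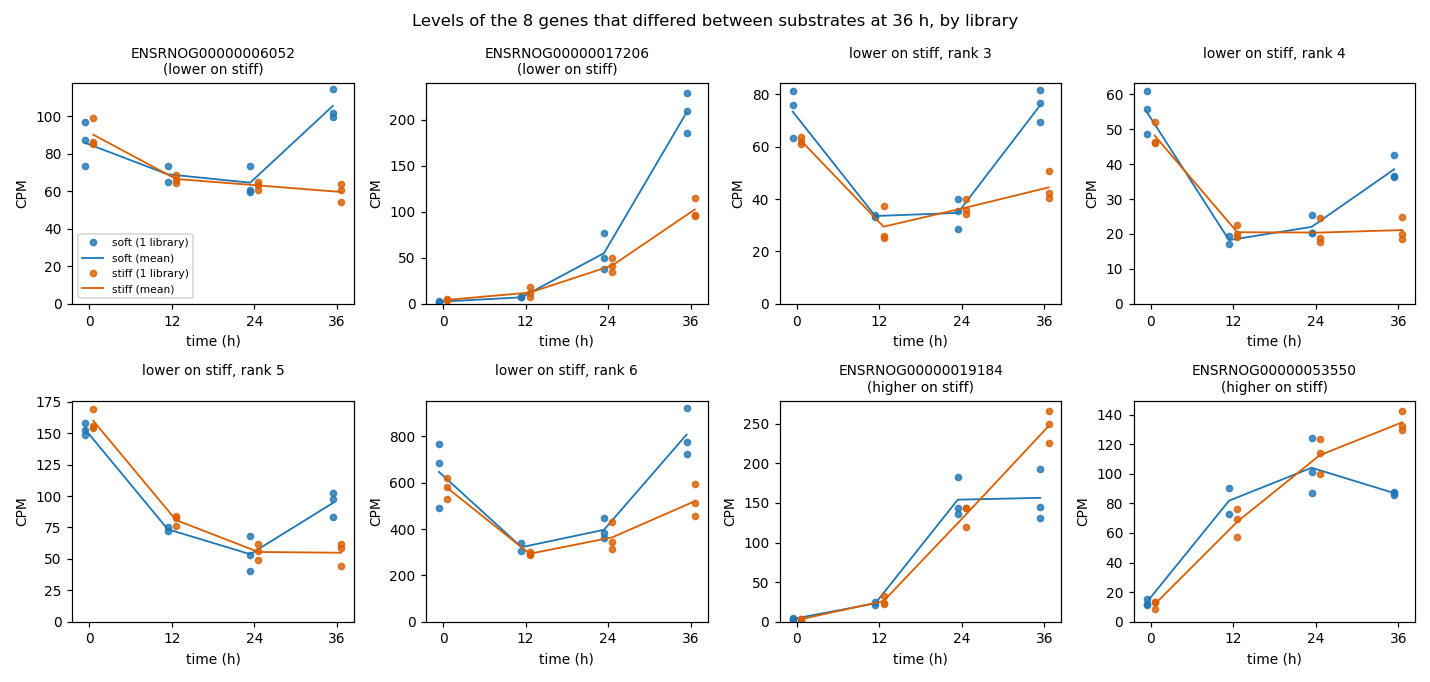
Level (CPM, linear axes from 0) of each of the 8 genes against time in hours, with 1 point per library (soft blue, stiff orange) and lines through the group means. The means of the substrates lie closer together up to 24 h than at 36 h. Their libraries do not overlap at 0 h in ENSRNOG00000017206, nor at 12 h in the fifth and sixth lower genes. In 5 of the 6 lower genes the soft line turns upward after a fall, and in the 2 higher genes the stiff line ends above the soft one.

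The other 4 lower genes all fell first and then recovered on soft. In the third lower gene the soft libraries stood at 76.7, 81.6 and 69.5 CPM at 36 h and the stiff ones at 40.3, 50.9 and 42.2 CPM. The soft mean of 75.9 CPM was close to that of 73.4 CPM at 0 h, after means of 33.5 CPM at 12 h and 34.7 CPM at 24 h. The fourth lower gene held 42.5, 36.4 and 36.6 CPM on soft and 24.8, 18.5 and 20.1 CPM on stiff at 36 h, against group means of 22 and 20.4 CPM at 24 h. Here soft recovered in part, from 55.1 CPM at 0 h, and stiff stayed near its 24 h level.

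In the fifth lower gene the 36 h values were 97.4, 83.1 and 103 CPM on soft and 58.4, 62.1 and 44.1 CPM on stiff. The soft mean was 53.7 CPM at 24 h and 94.4 CPM at 36 h, and the stiff mean 55.5 and 54.9 CPM. Both substrates had come down from 153 CPM (soft) and 160 CPM (stiff) at 0 h. In the sixth lower gene the 36 h values were 922, 725 and 775 CPM on soft and 594, 512 and 455 CPM on stiff. This gene rose from 24 h on both substrates, from a mean of 397 to 807 CPM on soft and from 364 to 520 CPM on stiff. At 36 h the 4 genes had log2 fold changes of -0.77, -0.87, -0.76 and -0.63 (SE 0.134, 0.153, 0.136 and 0.125), with adjusted p of 0.00797, 0.00797, 0.00897 and 0.0313 by edgeR's quasi-likelihood test. Each was lost in 3 or 4 of the 6 fits that left out a library, at adjusted p up to 0.105, 0.124, 0.242 and 0.317. Without soft replicate 1 and without stiff replicate 3, all 4 were lost.

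The 2 genes higher on stiff had risen by 24 h and were called between substrates only at 36 h. Their difference at 36 h was not shown to depart from that at 24 h. The adjusted p of that test by edgeR was 0.34 for ENSRNOG00000019184 and 0.999 for ENSRNOG00000053550. ENSRNOG00000019184 climbed from a few CPM to over 100 on both substrates by 24 h, then rose on stiff, while its change on soft did not pass the test. At 0 h it held 4.9, 2.27 and 3.38 CPM on soft and 2.6, 3.12 and 4.01 CPM on stiff. At 12 h it held 20.9 and 25.3 CPM on soft and 21.8, 23.6 and 32.9 CPM on stiff. At 24 h it held 183, 136 and 144 CPM on soft and 144, 119 and 143 CPM on stiff. The substrates overlapped at all 3 times. At 36 h the soft libraries were at 144, 132 and 193 CPM, overlapping those of 24 h, and the stiff ones at 266, 225 and 250 CPM, above all other libraries. The difference was 1.59-fold (log2 fold change 0.67, SE 0.134, adjusted p from edgeR = 0.0313). The step from 24 h was 0.01 (SE 0.134) on soft and 0.86 (SE 0.132) on stiff. Without soft replicate 3, its highest soft library, the log2 fold change was 0.85 (edgeR adjusted p = 0.00512). Without any 1 of the other 5 libraries it was 0.55 to 0.73 and did not pass the test, with adjusted p from 0.0784 to 0.242.

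ENSRNOG00000053550 had made most of its rise on soft by 12 h. On stiff its mean went from 11.9 CPM at 0 h to 67.6 CPM at 12 h and 113 CPM at 24 h. The gene held 11.8, 15.6 and 11.6 CPM on soft and 13.3, 8.9 and 13.4 CPM on stiff at 0 h. At 12 h the values were 73.1 and 90.5 CPM on soft and 69.3, 57.6 and 76 CPM on stiff, and at 24 h 124, 86.7 and 101 CPM on soft and 99.8, 114 and 124 CPM on stiff. At 36 h the soft libraries lay close together, at 87.9, 87.1 and 85.7 CPM, and the stiff ones stood at 129, 132 and 143 CPM, above all other libraries. The difference was 1.55-fold (log2 fold change 0.63, SE 0.128, adjusted p from edgeR = 0.0371). The steps from 24 h were -0.25 (SE 0.128) on soft and 0.26 (SE 0.123) on stiff, and neither passed the test. This call was the least stable of the 8: it was lost with any 1 of the 6 libraries left out, at adjusted p from 0.0551 to 0.294, although the log2 fold change stayed between 0.59 and 0.66.

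The libraries of 0, 12 and 24 h entered the choice of the 8 genes through the spread, the scaling and the filter on low counts. They did not enter through the difference at 36 h. At 0, 12 and 24 h, 0 of the 8 genes passed edgeR's test between substrates, against 0%, 6.6% and 0% of all tested genes. At each time 1 of the 8, ENSRNOG00000017206, had an unadjusted p under 0.05, as did 3.63%, 19.3% and 3.02% of all tested genes. The sign was that of 36 h in 3, 4 and 5 of the 8 genes at 0, 12 and 24 h. Over the 6 lower genes the median log2 fold change was -0.05 at 0 h, 0.04 at 12 h and -0.08 at 24 h. For all tested genes 431 had an unadjusted p under 0.05 at 0 h and 358 at 24 h, and DESeq2 and limma-voom also called 0 at both times.

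**Figure D3:**
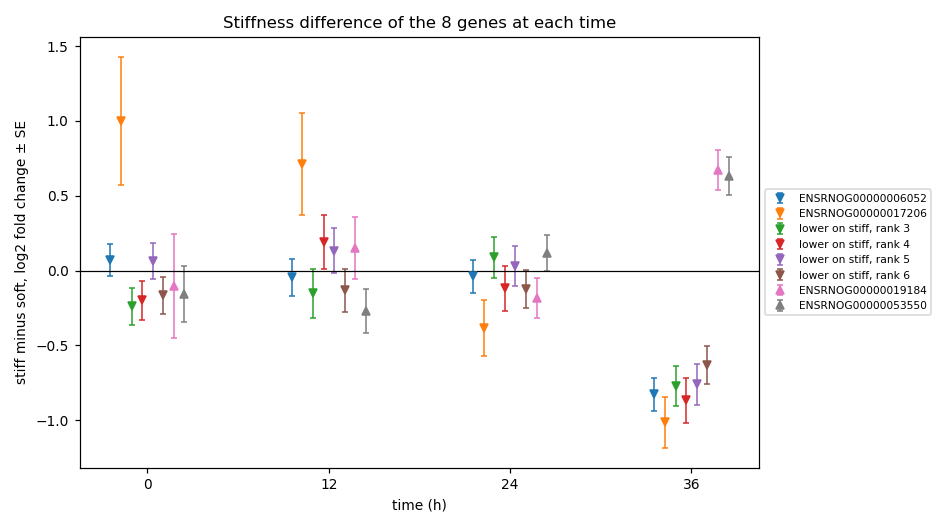
Stiff minus soft (log2 fold change ± SE from the edgeR fit) for the 8 genes at 0, 12, 24 and 36 h, offset sideways to keep the points apart. Before 36 h most points lie within 0.3 of the line at 0, and ENSRNOG00000017206 goes from 1.00 at 0 h to -1.01 at 36 h.

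Whether the difference at 36 h itself departed from that at earlier times was tested in the same fit. Against 0 h, 1 gene passed (0.00843% of those tested), ENSRNOG00000006052, with a log2 difference of effects of -0.90 (SE 0.153, adjusted p from edgeR = 0.0195). Against 24 h, 0 genes passed by edgeR, limma-voom also called 0, and 439 genes (3.7%) had an unadjusted p under 0.05. All 8 genes had an unadjusted p under 0.05 in both tests (5.88% of tested genes did against 0 h), with absolute differences of effects of 0.47 to 2.01 against 0 h and 0.51 to 0.86 against 24 h. The call of ENSRNOG00000006052 was lost with any of 6 libraries left out, 3 of 0 h and 3 of 36 h, at adjusted p from 0.0531 to 0.155. The 8 genes were chosen on the 36 h libraries that enter these tests, so these values are a description and no independent support. For 7 of the 8 genes the difference at 36 h was not shown by this fit, after adjustment over all tested genes, to depart from that at 0 h, nor for any of the 8 from that at 24 h. Against 24 h other settings did call some of the 8: DESeq2 called 1 gene, among the 8, and the fit that kept every gene with a count called 14, of which 5 were among the 8. Leaving out soft replicate 2 of 24 h gave 2 calls and leaving out soft replicate 3 of 36 h gave 1, all among the 8. Against 0 h, 697 genes had an unadjusted p under 0.05, and 519 without soft replicate 3 of 36 h.

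The change up to 24 h does not use the levels at 36 h. Each of the 8 genes changed between 0 and 24 h on both substrates and in the same direction on both. Among the 6 lower genes 5 fell and 1 rose, and both higher genes rose. On soft 24.1% of all tested genes fell and 25.1% rose in this interval, and on stiff 25.4% fell and 25.9% rose. These shares include 3468 genes with a mean under 10 CPM at 36 h, where none of the 8 lies. Shares among genes of a like level were not taken. For the lower genes that fell, the log2 changes on soft were -0.41 to -1.50 and on stiff -0.51 to -1.53. The 2 higher genes rose by 2.98 and 5.47 on soft and by 3.25 and 5.39 on stiff.

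In the last step, from 24 to 36 h, all 6 lower genes rose on soft, by 0.71 to 1.92 on the log2 scale, and 2 of them rose on stiff. Of all tested genes 4.66% rose on soft in this step (553 genes, and 429 without soft replicate 3) and 4.6% on stiff. The 36 h soft libraries lay above all 6 libraries of 24 h in each of the 6 lower genes (8.6% of tested genes), and the 36 h stiff libraries did so in 3 (8.42%). Of the 2 higher genes 0 changed on soft and 1 rose on stiff. A fall by 24 h followed by a rise by 36 h was an uncommon course: on soft 0.793% of tested genes passed both steps in these directions, and on stiff 0.481%. Of the 6 lower genes 5 followed it on soft and 1 on stiff. The choice at 36 h favours genes that are high on soft, so these counts describe the 6 genes and test nothing.

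**Figure D4:**
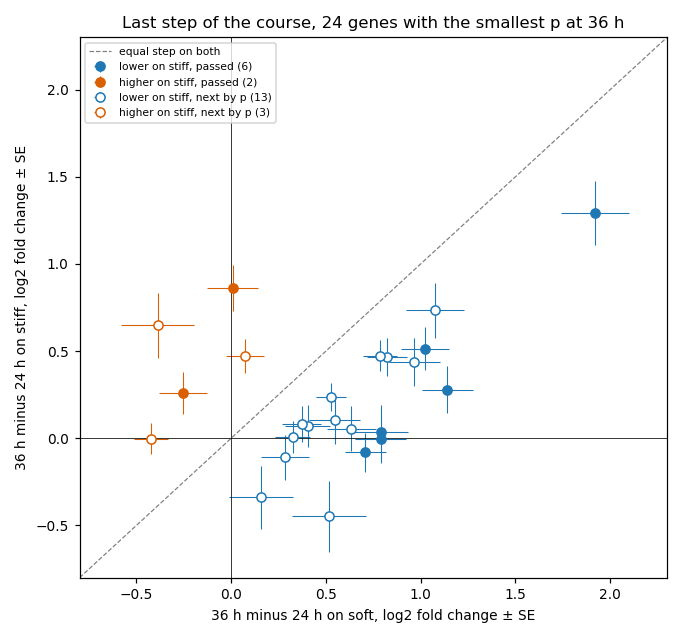
Change from 24 to 36 h (log2 fold change ± SE) on stiff against that on soft, for the 24 genes with the smallest p at 36 h. Filled points passed the test and open points are the next 16. The genes lower on stiff (blue) lie below the dashed line of equal steps and to the right of 0, and those higher on stiff (orange) lie above it.

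The next 16 genes by p did not pass the test, with adjusted p from 0.0516 to 0.103. Of them 13 had lower means on stiff and 3 had higher means, with absolute log2 fold changes of 0.34 to 0.94. In 15 the libraries did not overlap, and of all tested genes 5.9% lay wholly higher on stiff and 6.73% wholly lower. On soft 10 of the 13 rose from 24 to 36 h and on stiff 4 of the 13 did, with median log2 changes of 0.53 and 0.08. Of all tested genes 4.66% rose on soft in this step and 4.6% on stiff. In all 13 the 36 h soft libraries, which also ranked them, lay above all libraries of 24 h, as in 8.6% of tested genes. Of the 3 with higher means on stiff, 2 rose on stiff in the last step and 1 fell on soft, where 4.33% of tested genes fell. All 3 had risen by 24 h on both substrates, as had 25.1% of tested genes on soft and 25.9% on stiff.

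Over all tested genes the substrates were close at 36 h. The median absolute log2 fold change was 0.133, against 0.106 at 0 h, 0.211 at 12 h and 0.103 at 24 h. For 9354 genes (78.9%) the 95% interval of the 36 h difference lay within 2-fold in either direction, and for 6942 (58.5%) within 1.5-fold. For the other genes the interval reached past the bound. The precision followed the level. Among 3468 genes with a mean under 10 CPM the median SE was 0.447 and 0 genes were called (4.41% at an unadjusted p under 0.05 by edgeR's test). Among 2156 genes at 100 CPM or more the median SE was 0.095, 4 genes were called and 11.3% had an unadjusted p under 0.05.

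A wider set of 835 genes (7.04%) had an unadjusted p under 0.05 at 36 h, 382 higher and 453 lower on stiff, and without soft replicate 3 the number was 637. The 24 h libraries entered their choice through the spread, the scaling and the filter, not through the difference at 36 h. In the 24 h libraries 63.9% of the 382 and 33.8% of the 453 were higher on stiff, against 49.2% of all tested genes. The median differences at 24 h were small, 0.03 and -0.05, beside 0.38 and -0.40 at 36 h. At 12 h the shares went the other way, with 31.9% of the 382 and 58.5% of the 453 higher on stiff, against 45.8% of all tested genes. Across all tested genes, which are not independent replicates, the difference at 36 h had a Pearson correlation of 0.06 with that at 24 h, -0.07 with that at 12 h and -0.03 with that at 0 h. These correlations are weak, and the libraries of each time are separate. They count all genes alike, including 3468 with a mean under 10 CPM and a median SE of 0.447 at 36 h. Noise of that size lowers a correlation, so these values do not measure how much of the difference the times share.

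Before 36 h the courses of the 835 genes were as follows. By 24 h, 182 of the 382 higher genes had risen on soft and 54 had fallen, and on stiff 193 had risen and 45 had fallen. Of all tested genes 25.1% had risen and 24.1% had fallen on soft, and 25.9% and 25.4% on stiff. Of the 453 lower genes, 108 had risen and 179 had fallen on soft, and 104 had risen and 196 had fallen on stiff. The median log2 changes from 0 to 24 h were 0.35 (soft) and 0.41 (stiff) for the higher genes and -0.21 and -0.28 for the lower ones, against 0.01 on both substrates for all tested genes. Risen genes thus outnumbered fallen ones in the higher set and fallen genes outnumbered risen ones in the lower set, on either substrate; these shares were not tested against those of all genes.

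The number of calls at 36 h depended on the method, but the 8 genes recurred. They were all called with RLE scaling, with no filter on low counts, with a filter of 5 CPM, with DESeq2, with limma-voom and in a fit of the 36 h libraries alone. Those fits called 9, 97, 9, 47, 12 and 28 genes. With no filter 46 were higher and 51 lower on stiff, with DESeq2 17 and 30, and with the 36 h libraries alone 13 and 15. With the round number as a block 48 genes were called, and 134 with the block in the 36 h libraries alone, all 8 among both. Of the 48, 16 were higher and 32 lower on stiff, and of the 134, 64 and 70. The lean toward lower genes was thus small in some of these fits. Without the 12 h libraries 7 of the 8 were called, and with all libraries thinned to the smallest total 5 of the 8. The number of calls moved most with the method, whereas single libraries mattered more for how many of the 8 were kept. Without soft replicate 1 or stiff replicate 3, 1 gene was called, ENSRNOG00000006052 in both cases. Without stiff replicate 2 there were 3, without soft replicate 2 there were 6 and without stiff replicate 1 there were 13.

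**Figure D5:**
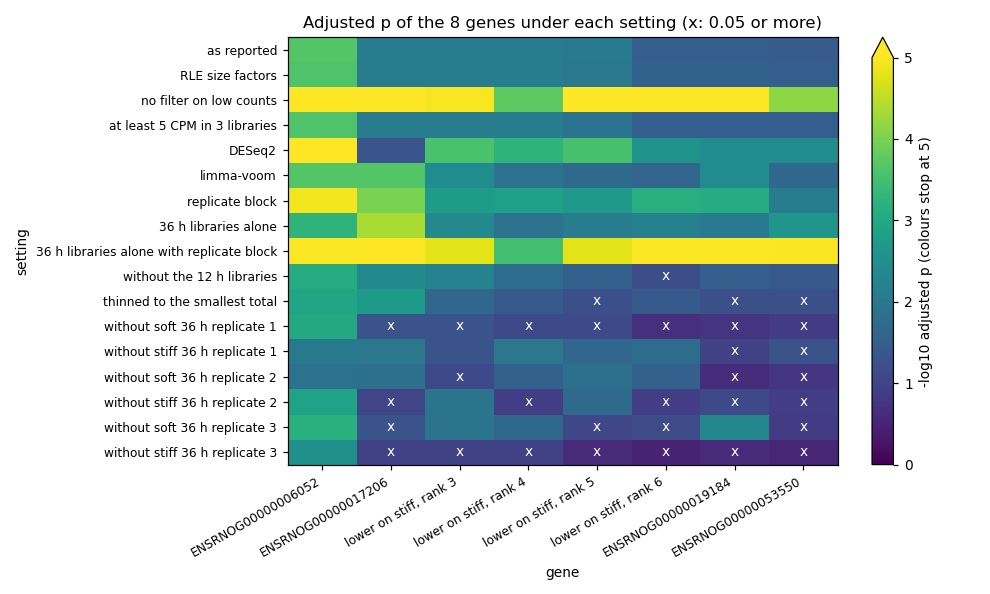
Adjusted p of each of the 8 genes (columns) under each setting (rows), as -log10 with colours that stop at 5, where x marks an adjusted p of 0.05 or more. The column of ENSRNOG00000006052 has no x. Marks gather in the 6 rows that leave out 1 library, and ENSRNOG00000053550 has one in all 6.

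In 5 or more of the 10 alternatives that kept every library of 36 h, 25 genes were called, the 8 and 17 others. Of the 25, 15 were lower and 10 higher on stiff. Without soft replicate 3, 4 of the 25 were called. All 15 lower genes rose on soft from 24 to 36 h and 4 rose on stiff, against 4.66% and 4.6% of tested genes. Of the 10 higher genes 5 rose on stiff in that step and 0 on soft, where 2 fell. All 10 higher genes had risen by 24 h on both substrates, and 11 of the 15 lower genes had fallen by then on each substrate, where 25.1% to 25.9% of tested genes had risen and 24.1% to 25.4% had fallen. At 0 and at 24 h 0 of the 25 passed edgeR's test between substrates, and at 12 h 3 of the lower genes did, 2 higher and 1 lower on stiff (5.36% and 1.24% of tested genes). This set was drawn up after its values were seen, from fits to the same libraries, and is given as a description.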

How the data were processed

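Counts came from QuantSeq FWD libraries, which read the 3' ends of polyadenylated RNA, per the labels' protocols. The authors deposited raw whole-number counts per gene, 1 column per library. FastQC, HISAT2 2.1.0, HTSeq and rn6 are named, per the submitters' processing notes. For the annotation release and strand setting, nothing is given in the sources used here, and overlapping or duplicated genes may share reads. Samples were grouped by title, and members, lists and tests were chosen with earlier results of these data known. With R 4.3.3, edgeR 4.0.16 fitted 8 group means to 23 libraries (TMM, filterByExpr with minimum count 10 and total 15, quasi-likelihood F test, Benjamini-Hochberg over 11857 genes). SEs are implied by F. Alternatives used DESeq2 1.42.0, limma 3.58.1 (voom), RLE factors, 2 other filters, thinning, round blocks, fewer libraries and each library left out. Replicates within a 36 h group differed by more than sampling noise (chi-square per degree of freedom 3.1 to 4.83 over genes with at least 20 counts). The rule for named genes was to take every called gene and the next by p up to 24. Since 0 identifiers matched a name, its gene lists and eEF1A1 were not used and 4 identifiers are printed. Figures used matplotlib 3.10.9.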

Additional observations from a re-analysis of the deposited data

Results flagged for a closer look

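For ENSRNOG00000006052 the stiffness effect differed between 36 h and 0 h by a test of the difference itself. Its log2 effect at 36 h minus that at 0 h was -0.897, with levels of 105 ± 8.13 CPM on soft and 59.6 ± 4.81 CPM on stiff at 36 h and of 85.8 ± 11.8 and 90.1 ± 7.6 CPM at 0 h (SD, n = 3 each). The adjusted p was 0.0195 by edgeR's quasi-likelihood test over all tested genes, and it was 0.000243 to 0.021 over the other scalings, filters, tools and the replicate block. The call was lost without soft replicate 1 or 3 of 0 h (edgeR adjusted p = 0.0811 and 0.0531), stiff replicate 2 of 0 h (0.155), soft replicate 2 of 36 h (0.114) and stiff replicate 1 or 3 of 36 h (0.0686 and 0.0708), with log2 differences from -0.998 to -0.795 over the 12 fits that left out 1 library. The gene was chosen on the 36 h libraries that enter this difference. Against 24 h its log2 difference of effects was -0.788 (SE 0.155) and did not pass the test in the main fit (edgeR adjusted p = 0.19).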

How the results depend on the processing

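No direction of the 8 genes at 36 h reversed under any setting tried. The number of genes called at 36 h, 8, became 97 with no filter on low counts, 47 with DESeq2, 28 with the 36 h libraries alone, and 1 to 13 with 1 library left out. The round number as a replicate block gave 48, or 134 with the 36 h libraries alone, and all 8 genes were among both. With the block in the fit to all libraries, 1019 genes had an unadjusted p under 0.05 by edgeR's test, against 835 without it. The main fit did not pair the rounds, since the labels give only a round number. Libraries of the same round at 36 h deviated together only weakly over all tested genes, with correlations of 0.0671, 0.0158 and 0.0394. Yet 5 of 6 libraries correlated best with their own round. These correlations do not show that the rounds can be ignored, and which fit is better was not tested. With no filter, genes called were 12 at 0 h, 8 at 24 h, 23 for the effect at 36 h minus that at 0 h and 14 for that at 36 h minus 24 h. DESeq2 gave 2 and 1 for these last comparisons, and the block gave 2 for the second, both among the 8 genes. With 1 library left out they ranged from 0 to 1 and from 0 to 2. Calls at 12 h ranged from 336 to 672, for the step from 24 to 36 h from 667 to 934 on soft and from 540 to 1020 on stiff. The libraries that moved these counts by over 1.5 times were stiff replicate 2 (502) and soft replicate 3 (336) at 12 h, soft replicate 1 of 36 h (667) for the soft step, and stiff replicate 1 of 36 h (540) and replicate 2 of 24 h (600) for the stiff step. For the effect at 36 h minus 24 h, 2 genes were called without soft replicate 2 of 24 h and 1 without soft replicate 3 of 36 h. The cause of these shifts was not tested. The lists of named genes were not run, since no identifier had a name.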
